A study of Homo sapiens with 12 samples.

Results

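The regions described here were those found at an end of a protein-coding gene in the deposited list for OSU-ERb-12 and in neither of the lists for enzalutamide and for both agents. A region was taken if it overlapped no region of the other lists by 1 bp or more and lay within 1 kb of either end of a RefSeq GRCh38 protein-coding gene. This gave 948 regions (216.4 kb), or 5.29% of the 17931 regions in the OSU-ERb-12 list and 5.99% of its 15837 regions without an overlap, out of 49496 regions in all 3 lists. The study applied ATAC-seq to the prostate cancer cell line 22Rv1 in 12 samples: 3 with vehicle, 3 with enzalutamide at 1 µM for 6 h, 3 with OSU-ERb-12 at 100 nM for 6 h and 3 with OSU-ERb-12 plus enzalutamide for 6 h, whose own labels give no doses. All samples carry the genotype label WT. The members were thus chosen by their presence in 1 list and absence from the others. The lists hold positions only, with no value per library or region and no stated direction against vehicle (their names carry the term neg, whose meaning is not given), so a listed region may have been more or less accessible, and depth is unknown. The single-agent and combination lists are taken to share the vehicle samples as their control.

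ATAC-seq reads out DNA that a transposase can reach, and in most cells the DNA just before the start of an active gene is kept open by transcription factors and the polymerase. The far end of a gene, where transcripts are cut and polyadenylated, is a different landmark, although enhancers and the starts of neighbouring genes can also lie there. The beta form of the oestrogen receptor, encoded by ESR2 and able to bind DNA at oestrogen response elements, is the target of OSU-ERb-12. Enzalutamide is an antiandrogen used against prostate cancer. The lists do not measure gene expression, so the cell line could not be checked against its markers.

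Some members lay across a gene start, and the DNA before those starts is shown first. The members cover only part of it. Each sequence holds the 250 bases before the start of the gene, 5′ to 3′ in the direction of transcription, from RefSeq (GRCh38.p14), with bases inside the member in capitals. The first 4 are the genes, among those named by rule, whose start was covered and had an entry. They are IL12RB1, a receptor subunit for interleukin 12 (chr19:18098928-18099177, minus strand), SLC15A2, a peptide transporter gene (chr3:121894151-121894400, plus strand), NR1H2, which encodes the nuclear receptor LXR beta (chr19:50376207-50376456, plus strand), and HOXA4, a homeobox gene (chr7:27130758-27131007, minus strand). Of the 250 bases, the member held 73 at IL12RB1, 50 at SLC15A2, 6 at NR1H2 and 93 at HOXA4. The other 2 were added after the data were seen because a member filled most of the bases before the start. They are LRRC3, a leucine-rich repeat gene (chr21:44455260-44455509, plus strand), and SLC2A2, which encodes the glucose transporter GLUT2 (chr3:171026721-171026970, minus strand).
IL12RB1: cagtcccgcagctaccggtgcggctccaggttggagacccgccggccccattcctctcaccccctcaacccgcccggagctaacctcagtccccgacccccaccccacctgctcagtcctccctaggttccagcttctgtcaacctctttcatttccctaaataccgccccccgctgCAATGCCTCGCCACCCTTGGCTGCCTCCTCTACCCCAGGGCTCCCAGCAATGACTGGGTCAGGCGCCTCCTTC
SLC15A2: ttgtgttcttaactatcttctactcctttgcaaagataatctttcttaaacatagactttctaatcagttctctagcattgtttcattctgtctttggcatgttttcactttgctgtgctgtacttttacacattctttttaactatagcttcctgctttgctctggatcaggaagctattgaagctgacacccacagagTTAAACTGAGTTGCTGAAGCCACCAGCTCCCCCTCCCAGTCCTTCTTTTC
NR1H2: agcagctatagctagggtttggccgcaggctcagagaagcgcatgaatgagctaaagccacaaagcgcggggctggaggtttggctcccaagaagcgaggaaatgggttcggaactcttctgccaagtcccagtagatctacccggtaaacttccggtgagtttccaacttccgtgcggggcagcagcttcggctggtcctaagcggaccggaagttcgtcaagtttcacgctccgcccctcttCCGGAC
HOXA4: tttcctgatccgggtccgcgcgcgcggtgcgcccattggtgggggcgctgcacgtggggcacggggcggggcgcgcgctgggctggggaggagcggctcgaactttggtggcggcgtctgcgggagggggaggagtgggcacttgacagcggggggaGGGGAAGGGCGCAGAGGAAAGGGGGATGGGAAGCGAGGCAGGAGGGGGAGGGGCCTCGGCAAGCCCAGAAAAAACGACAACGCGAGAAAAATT
LRRC3: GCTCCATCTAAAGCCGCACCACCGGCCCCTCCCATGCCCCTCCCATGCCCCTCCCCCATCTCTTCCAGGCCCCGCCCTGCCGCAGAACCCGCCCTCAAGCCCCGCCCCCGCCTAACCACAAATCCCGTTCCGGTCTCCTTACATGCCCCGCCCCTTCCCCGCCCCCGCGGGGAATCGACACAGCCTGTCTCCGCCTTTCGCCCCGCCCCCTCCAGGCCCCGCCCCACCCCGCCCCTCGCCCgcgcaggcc
SLC2A2: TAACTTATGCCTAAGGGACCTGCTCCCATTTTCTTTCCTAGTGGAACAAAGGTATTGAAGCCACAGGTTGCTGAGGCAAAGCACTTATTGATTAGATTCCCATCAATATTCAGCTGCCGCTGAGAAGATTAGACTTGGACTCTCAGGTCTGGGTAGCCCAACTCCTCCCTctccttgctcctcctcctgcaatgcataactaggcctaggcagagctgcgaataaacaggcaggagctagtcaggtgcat

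These starts differed in base composition. The 250 bases before LRRC3 had a GC content of 74.0% and 8 matches to GGGCGG on either strand, the core of SP and KLF factor sites, all 8 of them within the member, which held 241 of the 250 bases. The bases before SLC15A2 had a GC content of 39.6% and no CpG, and those before SLC2A2 had 48.8%, with 170 bases inside the member. At IL12RB1 a match to GGTCA, the core of an oestrogen response element, lay within the 73 bases of the member. NR1H2 had 3 matches to CCGGAA, the core of ETS factor sites, none of them wholly inside the member, whose edge ran through the last one. A match is a description of the letters and does not show that a factor was bound.

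The members were found less often at gene starts, and more often at the other end of genes, than gene-end regions of the other lists. Strand was known for 15841 of 20033 protein-coding genes (79.1%), and a region was placed by its nearest gene end. Of 764 members whose nearest end belonged to a gene with a strand, 474 were nearest to a start (62.0%; exact Clopper-Pearson 95% interval 58.5 to 65.5) and 290 to the far end (38.0%). A further 184 members lay nearest to a gene with no strand in the table used. That table has no entry for chromosome 8, so the 31 members there are left out of the results on starts. Enzalutamide-only gene-end regions, selected in the same way, were nearest to a start in 3530 of 4067 cases (86.8%; 85.7 to 87.8), and the members' odds were 0.25 times theirs (95% interval 0.21 to 0.30; two-sided Fisher's exact test, adjusted p = 6.12e-52). Combination-only gene-end regions gave 302 of 416 (72.6%; 68.0 to 76.8), for odds 0.62 times theirs (0.47 to 0.81; adjusted p = 0.000566 by the same exact test). Adjustment was by Benjamini-Hochberg over 9 tests. Regions are not replicates and neighbours may depend on each other, so these p-values describe the lists only.

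The choice of members bears on this difference, since leaving out overlaps with a list that is rich at starts also removes start regions. In the whole lists, with shared regions kept, 70.1% of 1192 OSU-ERb-12 gene-end regions, 86.9% of 4679 enzalutamide regions and 79.3% of 801 combination regions were nearest to a start. The odds ratios were then 0.35 against enzalutamide and 0.61 against the combination. Shared regions count in both groups of these comparisons, so the groups are not separate and no p-value is read. OSU-ERb-12 gene-end regions that overlapped another list were nearest to a start in 362 of 428 cases (84.6%). Overlap with a list rich at starts raises the share of this set by itself, so no test against it is read here or below. With regions wider than 200 bp only, the difference from the combination was no longer called (odds ratio 0.67; Fisher's exact test, adjusted p = 0.122). In this setting, here and below, 200 bp regions were left out of every list before overlaps were counted. Its sets are therefore not simply the wider regions of the sets above.

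**Figure D1:**
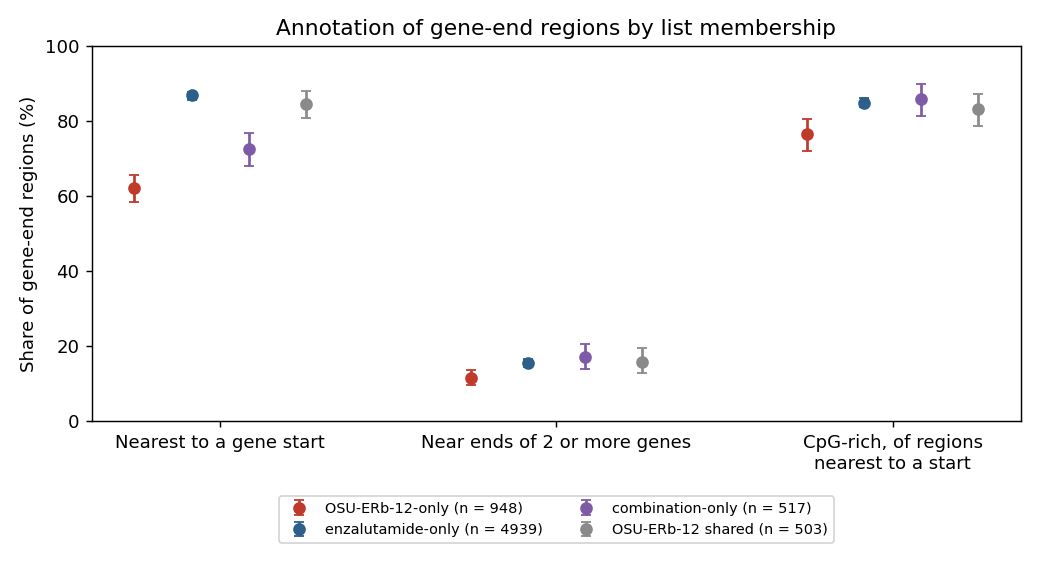
Share of gene-end regions (%, y axis) with 3 annotation features, for the 948 members and 3 other sets of gene-end regions; points are shares and bars exact 95% intervals over regions, and the legend gives all gene-end regions of a set. The members sit lowest in each group, at 62.0%, 11.5% and 76.5%.

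Counted over annotated ends, a member lay within 1 kb of 545 of 15841 starts (3.44%) and 320 of 15841 far ends (2.02%), a ratio of 1.70. Of all enzalutamide-only, combination-only and shared regions, 21.5%, 11% and 24% lay at a gene end. The same ratio of starts to far ends was 5.50 for enzalutamide-only regions (23.5% of starts and 4.27% of far ends) and 2.43 for combination-only regions (2.20% and 0.903%). Of the 290 far-end members, 20 (6.90%) also lay within 1 kb of another start in the RefSeq promoter table, as did 78 of 537 enzalutamide-only far-end regions (14.5%).

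Around gene starts the members were spread over the whole window. The bin from 200 bp before the start to the start itself held 24 of the 474 start members (5.06%), the lowest of the 10 bins, and the bin from 200 to 400 bp inside the gene held 65 (13.7%), the highest. Enzalutamide-only regions had 11.5% and 15.3% in these bins, and combination-only regions had 19.5% and 14.9%. In the whole OSU-ERb-12 list the bin just before the start held 6.34%. It was not the lowest there, since the bin from 1000 to 800 bp before the start held 5.86%. Shared regions had 8.01% just before the start. The start base itself was covered by 38 of 474 start members (8.02%; 5.74 to 10.8), by 18.4% of enzalutamide-only and by 24.5% of combination-only start regions. Positions come from the same lists as the rule and widths differ between lists, so these shares were not tested.

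At far ends the 10 bins held between 16 and 32 members each, the lowest from 600 to 800 bp beyond the end, and 149 of the 290 midpoints (51.4%) were beyond the end of the gene. The end base was covered by 35 members (12.1%; 8.55 to 16.4), against 75 of 537 enzalutamide-only and 8.77% of combination-only far-end regions.

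**Figure D2:**
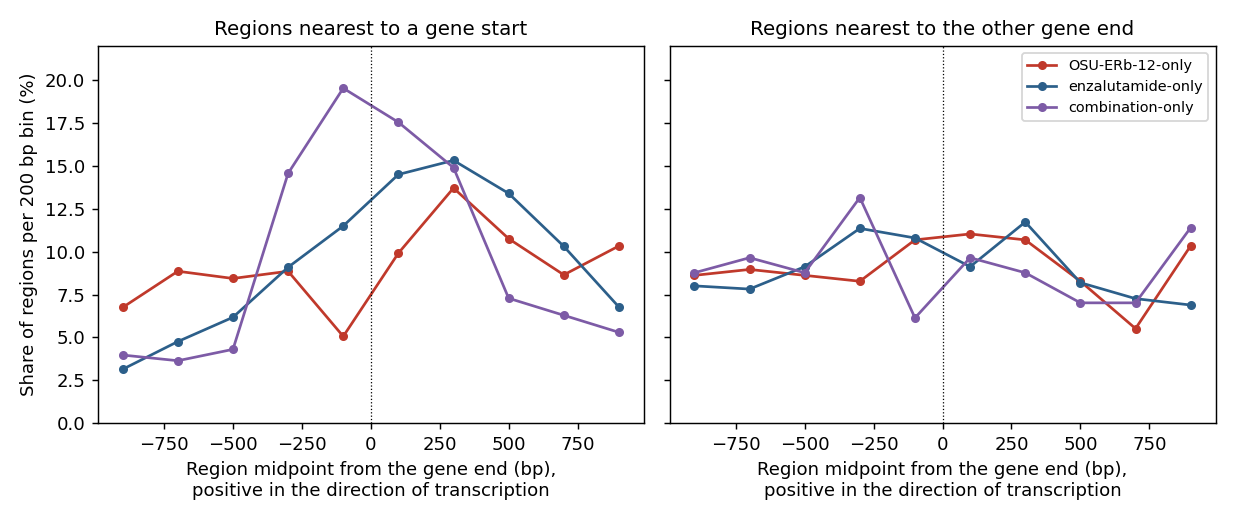
Position of region midpoints (x axis, bp from the gene start on the left and from the other end on the right, positive in the direction of transcription) as the share of regions per 200 bp bin (y axis, %), for members and for enzalutamide-only and combination-only gene-end regions. The members dip to 5.06% just before the start, where combination-only regions reach 19.5%, and at the other end no bin of the 3 sets exceeds 13.2%.

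Starts that held a member were more often poor in CpG than those of the enzalutamide-only and combination-only sets. A start was called CpG-rich where the 300 bases from 250 before to 50 after it had a GC content of at least 50% and an observed to expected CpG ratio of at least 0.6. This held for 315 of 412 start members with an entry (76.5%; exact interval 72.1 to 80.5) and for 2725 of 3210 enzalutamide-only start regions (84.9%; 83.6 to 86.1), for odds 0.58 times theirs (0.45 to 0.75; Fisher's exact test, adjusted p = 9.69e-05). For combination-only regions it held for 238 of 277 (85.9%), for odds 0.53 times theirs (0.34 to 0.81; adjusted p = 0.00362 by the same exact test), which was not called with regions wider than 200 bp only (0.65; adjusted p = 0.28). Shared OSU-ERb-12 regions gave 83.1% of 320, a share that overlap with those lists raises by itself. Leaving out these regions lowers the share of the members in the same way. In the whole lists, 79.4% of 732 OSU-ERb-12, 84.9% of 3689 enzalutamide and 85.5% of 579 combination start regions were CpG-rich. The odds ratios were then 0.68 and 0.65, with shared regions in both groups, so no p-value is read. Of all 13900 promoters at the start of a protein-coding gene, 63.8% were CpG-rich, so the members lay between all promoters and those of the other lists. Among the starts covered by a member, those of CD63, a tetraspanin gene, and INHBC, an inhibin subunit gene, had observed to expected ratios of 0.383 and 0.158. NTSR1, which encodes a neurotensin receptor, had 0.916.

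Motifs were counted in the 300-base promoters of 407 genes with a start member, of which a member overlapped 88, and in all 13900 promoters. Both strands were searched and overlapping matches allowed. GGTCA was present in 33.9% of member promoters, 35.9% of all promoters and 44.3% of the 88 that a member overlapped (exact interval 33.7 to 55.3). The palindromic oestrogen response element was in 0 of 407 and in 6 of 13900, and the androgen response element in none of either set. GGGCGG was in 65.4% against 58.5% of all and 72.3% of 2970 promoters with an enzalutamide-only start region, and in 54.5% of the 88. TATAAA was in 6.63% against 10.0%, CCAAT, the NFY core, in 38.8% against 37.1%, TGTTTAC, a FOXA core, in 3.19% against 2.53%, and TGANTCA, the AP-1 site, in 5.41% against 5.75%. These windows cover only part of the members, most of which lay outside them, and absence of a match says only that the letters are not there.

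The share of members near more than 1 gene was lower than in the enzalutamide-only and combination-only sets, a difference that did not hold under every setting. Of the 948, 109 (11.5%; 9.54 to 13.7) lay within 1 kb of ends of 2 or more genes, against 15.5% of enzalutamide-only (odds 0.71 times theirs, 0.57 to 0.88; Fisher's exact test, adjusted p = 0.00214) and 17.0% of combination-only regions (0.63, 0.46 to 0.87; adjusted p = 0.00494). Without chromosomes 1, 3, 7, 8 and 12 neither difference was called (0.76 and 0.69; Fisher's exact test, adjusted p = 0.0525 and 0.0642), nor with regions wider than 200 bp only (adjusted p = 0.28 and 0.148). Leaving out overlaps also bears on this share, since shared OSU-ERb-12 regions had 15.9%. In the whole lists the share was 13.0% for OSU-ERb-12, 15.5% for enzalutamide and 15.1% for the combination. The odds ratios were then 0.82 and 0.84, with shared regions in both groups, so their tests are not read. Among 85 members near exactly 2 genes of known strand, 49 lay at 2 starts, 13 at a start and a far end, and 23 at 2 far ends (27.1%; 18.0 to 37.8). Enzalutamide-only regions lay at 2 far ends in 39 of 551 such cases (7.08%; 5.08 to 9.55). Combination-only regions did so in 9 of 61 (14.8%; 6.98 to 26.2), an interval that overlaps that of the members. These shares were not tested. One region of 300 bp (chromosome 5, 1800501 to 1800800) lay 634 bp inside the start of MRPL36, a mitochondrial ribosomal protein gene, and 607 bp before the start of its divergent neighbour NDUFS6, a subunit gene of respiratory complex I. Another of 550 bp (chromosome 1, 247447951 to 247448500) lay near the far ends of NLRP3, the inflammasome sensor gene, and OR2B11, an olfactory receptor gene, 317 bp and 618 bp away.

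A member lay at an end of 1026 of 20033 protein-coding genes (5.12%), and enzalutamide-only and combination-only regions at 5051 (25.2%) and 605 (3.02%), shared regions at 583 (2.91%). Of the 1026 genes, 992 held 1 member and 34 held 2, and none held more. Members were at the start of 520 genes, at the far end of 295, at both ends of 25 and at a gene without strand for 186.

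Of the 25 genes with a member at both ends, 14 had different members there and 11 were short genes with 1 member near both ends. SLC15A2, the peptide transporter gene (chromosome 3, 121894401 to 121944188, 49788 bp), had a 350 bp member over its start and a 300 bp member 538 bp inside its far end. FBP1, which encodes the gluconeogenic enzyme fructose-1,6-bisphosphatase (chromosome 9, 94603133 to 94640263), had 200 bp members 438 bp before its start and 183 bp beyond its far end. LRCH3 and DRC9, a gene of the dynein regulatory complex of cilia, are neighbours on chromosome 3 with their far ends towards each other. A 400 bp member (197888501 to 197888900) lay between those far ends, 65 bp from LRCH3 and 177 bp from DRC9, and each gene had a further 200 bp member inside its start, 725 bp and 177 bp away. DRC11, of the same complex (chromosome 2, 200792 bp long), had 200 bp members 76 bp inside its start and 335 bp beyond its far end.

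CRTAP, a gene of collagen modification, ACAD9, an assembly factor of respiratory complex I, MTARC1, a mitochondrial reductase gene, NAPA, a gene of vesicle fusion, and TCHP also had members at both ends. Those of ACAD9 lay 531 bp inside the start and 137 bp beyond the far end. At NAPA a 250 bp member covered the far end and another lay 563 bp inside the start. The mitochondrial ribosomal protein genes MRPL38 and MRPS24 had members at both ends too, with the start members 467 bp and 584 bp before the gene. Other genes held both members at the same end. EAF1, which encodes a partner of the ELL elongation factors (chromosome 3, 15427598 to 15442613), had a 300 bp member 148 bp before its start and a 200 bp member 253 bp inside it, with the start itself between them. MRPL3 also had members on both sides of its start, 430 bp before and 371 bp inside. There the nearest combination region lay 400 bp from the first and 200 bp from the second, against 487950 bp and 488650 bp at EAF1. DPH1, a gene of diphthamide synthesis on chromosome 17, had both members at its far end, 598 bp inside and 553 bp beyond.

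**Figure D3:**
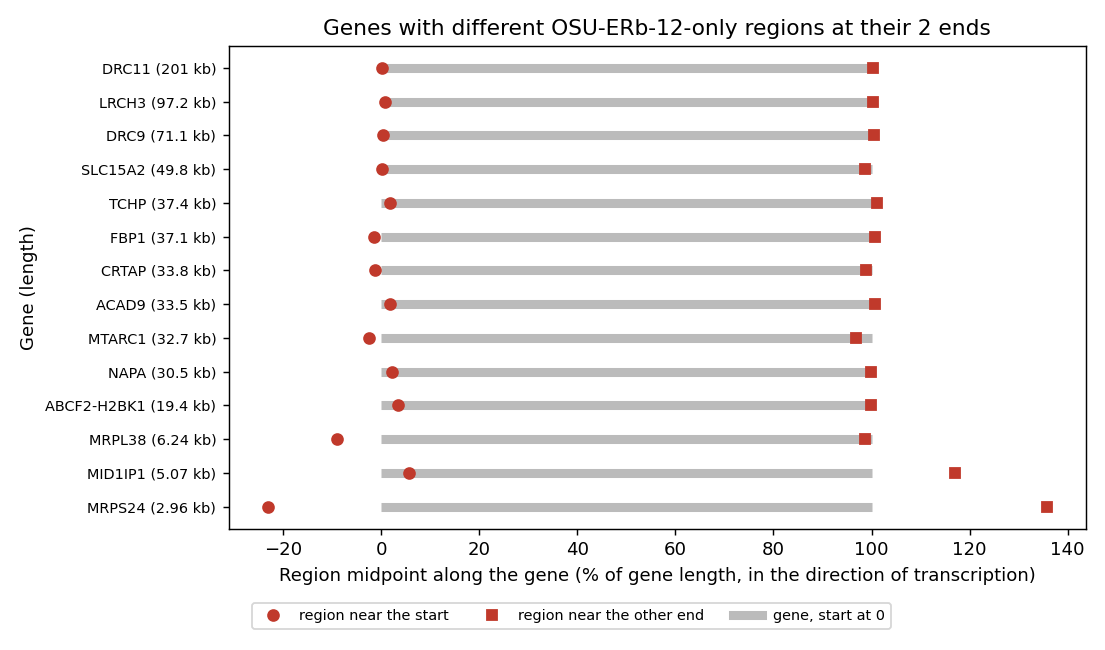
The 14 genes with different members at their 2 ends, each drawn from its start (0%) to its other end (100%) in the direction of transcription; the x axis is the position of the member's midpoint in percent of gene length, and circles and squares mark members near the start and the other end. The members near the other end lie over or beyond it in all but SLC15A2, CRTAP and MTARC1. A square can fall just short of 100% where the member covers the end, as at NAPA. The lengths run from 200792 bp (DRC11) to 2960 bp (MRPS24).

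Most members had the smallest width in the list. Of the 948, 639 (67.4%) were 200 bp wide, 179 were 250 bp and 17 (1.79%) were 400 bp or wider, against 16.1% of enzalutamide-only and 2.51% of combination-only gene-end regions. The widest, 700 bp (chromosome 14, 60169201 to 60169900), lay over the upper end of DHRS7, a short-chain dehydrogenase gene without strand in the table used. Members of 650 bp lay 245 bp inside the start of FZD4, a Frizzled receptor for Wnt ligands, 23 bp beyond the upper end of MED13, a Mediator subunit gene, and 977 bp inside the far end of SNX9, a sorting nexin gene. At LRRC3 a 600 bp member ended 10 bp before the start. NLRP3 (550 bp), STK32A, a kinase gene (500 bp), DPH1 (400 bp), IL12RB1 (400 bp) and DYSF, the dysferlin gene (400 bp, 290 bp inside the start), complete the 10 that the rule names.

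The limits of the rule fell among many regions. The members farthest from a gene lay 1000 bp from the start of USP6NL and from an end of VSTM2L, and the nearest regions left out lay 1003 bp from ZSCAN5A and 1005 bp from VAX2. No base separated 11 members from a region of another list that they did not overlap, 9 of them from an enzalutamide region, as at the starts of SOCS3, a cytokine signalling inhibitor gene, and BTG1, an antiproliferative gene. An enzalutamide region lay within 1 kb of 159 members (16.8%), and the median distance was 15275 bp. Distances to combination regions had a median of 78575 bp.

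None of 24 oestrogen response genes had a member at an end, where 5.12% of all protein-coding genes did, and 5 (20.8%) had an enzalutamide-only region, as did 25.2% of all genes. ESR2 had no member. The nearest region of the OSU-ERb-12 list without overlap lay 5957 bp from an end of ESR2, and 161972 bp from an end of ESR1. The whole OSU-ERb-12 list held 1 region inside ESR2 or within 1 kb of it, and 0 for ESR1. Of 48 nuclear receptor genes, 4 (8.33%) held a member. Besides NR1H2, covered at its start by a 300 bp member (chromosome 19, 50376451 to 50376750), these were RARB, a retinoic acid receptor gene, with a 200 bp member 280 bp inside its start, PPARG, a fat cell and metabolic receptor gene, with one 618 bp before its start, and PPARA, a receptor of fatty acid metabolism, with one 245 bp beyond its far end. This last region also covered the far end of CDPF1. The coactivator and corepressor list had 1 of 27, MED13.

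Androgen response genes held members at 3 of 40 (7.50%; all genes 5.12%), and 8 (20%; all genes 25.2%) had an enzalutamide-only region. STEAP4, a metalloreductase gene, had a 300 bp member 144 bp inside its start on chromosome 7. ELL2, an elongation factor gene, had a member 998 bp from a gene end, close to the limit of 1000 bp. An enzalutamide region lay 100 bp from the ELL2 member, and 24250 bp from that of STEAP4. KLK3, TMPRSS2 and FKBP5 held none, and the nearest unshared OSU-ERb-12 regions were 37515, 143505 and 99740 bp from an end. FOXA1, HOXB13 and MYC also held none. All 3 had an enzalutamide-only region at an end, as did FKBP5 and ESR2.

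Of 20 prostate lineage factor genes, 2 (10%; all genes 5.12%) held a member, the forkhead gene FOXA2 (90 bp from its upper end) and GRHL2, a grainyhead factor gene of epithelia (362 bp from its lower end). An enzalutamide region lay 500 bp from the FOXA2 member and 300 bp from the GRHL2 member. Enzalutamide-only regions lay at 11 of the 20 (55%; all genes 25.2%). Luminal and basal epithelial markers had 3 of 25 (12%). KRT18, which encodes the luminal keratin 18, had 2 members, 705 bp and 345 bp outside its ends on chromosome 12. EGFR had a 300 bp member 73 bp beyond its far end. The neuroendocrine list had 1 of 20, again FOXA2, and the list of blood, endothelial and fibroblast markers had 2 of 24, CD4 and PDGFRB. With lists of this size, 1 gene more or less moves a share by several percent.

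Of 42 cyclin, CDK and RB pathway genes, 4 (9.52%) held a member, where 5.12% of all genes did. PLK1, a mitotic kinase gene, had one 62 bp inside its start, E2F4, a repressor E2F gene, one 646 bp inside, CDKN1B, which encodes the inhibitor p27, one 718 bp before its start, and AURKA, another mitotic kinase gene, one 836 bp from an end. None of 52 DNA repair genes had a member, and 18 (34.6%; all genes 25.2%) had an enzalutamide-only region. Chromatin regulators had 3 of 52. SUV39H2, a histone methyltransferase gene, had a 350 bp member 285 bp inside its start, KMT2A a member over its far end and EZH1 one 911 bp before its start. Enzalutamide-only regions lay at 26 of the 52 (50%).

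Cytosolic ribosomal protein genes had members at 6 of 84 (7.14%; all genes 5.12%), 3 at starts and 3 at far ends, with RPLP2 (484 bp inside its start) and RPL22 (320 bp beyond its far end) as examples. Enzalutamide-only regions lay at 35 of the 84 (41.7%; all genes 25.2%). Mitochondrial ribosomal protein genes had 6 of 77 (7.79%), and all 6 had a member at the start. Proteasome subunit genes had 3 of 48, at the starts of PSMA1, PSMD2 and PSMG4. No base separated the PSMA1 member from an enzalutamide region. Those at PSMD2 and RPL22 lay 150 bp from one, and that at PSMG4 lay 5650 bp away. Respiratory chain subunit genes had 2 of 85 (2.35%), NDUFS6 and ATP5MC1, and splicing factors had 1 of 51 (1.96%), SRSF6.

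Among developmental and signalling genes, Wnt ligands, receptors and antagonists had 4 of 59 (6.78%; all genes 5.12%). Besides FZD4, the ligand gene WNT6 had a member 155 bp before its start, and the receptor gene ROR2 and the antagonist gene WIF1 had members 50 bp and 575 bp inside their far ends. HOX genes had 3 of 39, over the start of HOXA4 and beyond the far ends of HOXA13 and HOXB1 by 914 bp and 726 bp. AP-1 and immediate early genes had 2 of 37, EGR4 at the start and FOSB at the far end. Replication-dependent histone genes had 6 of 69 (8.70%), among them H2AC1, whose far end was covered by a 250 bp member that also lay 477 bp before the start of H2BC1. The neighbours H2AC17 and H2BC17 shared a member as well, so the 6 genes are not 6 separate regions.

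Large families lay on either side of the share of all genes. Zinc finger genes with a ZNF symbol had members at 24 of 509 (4.72%), for instance ZNF354C, 78 bp inside its start, and ZNF589, over its far end. Solute carrier genes had 21 of 379 (5.54%). Olfactory receptor genes, which are silent in most tissues, had 8 of 390 (2.05%), and 10 (2.56%) had an enzalutamide-only region, where all genes had 5.12% and 25.2%. Counts in lists were not tested.

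**Figure D4:**
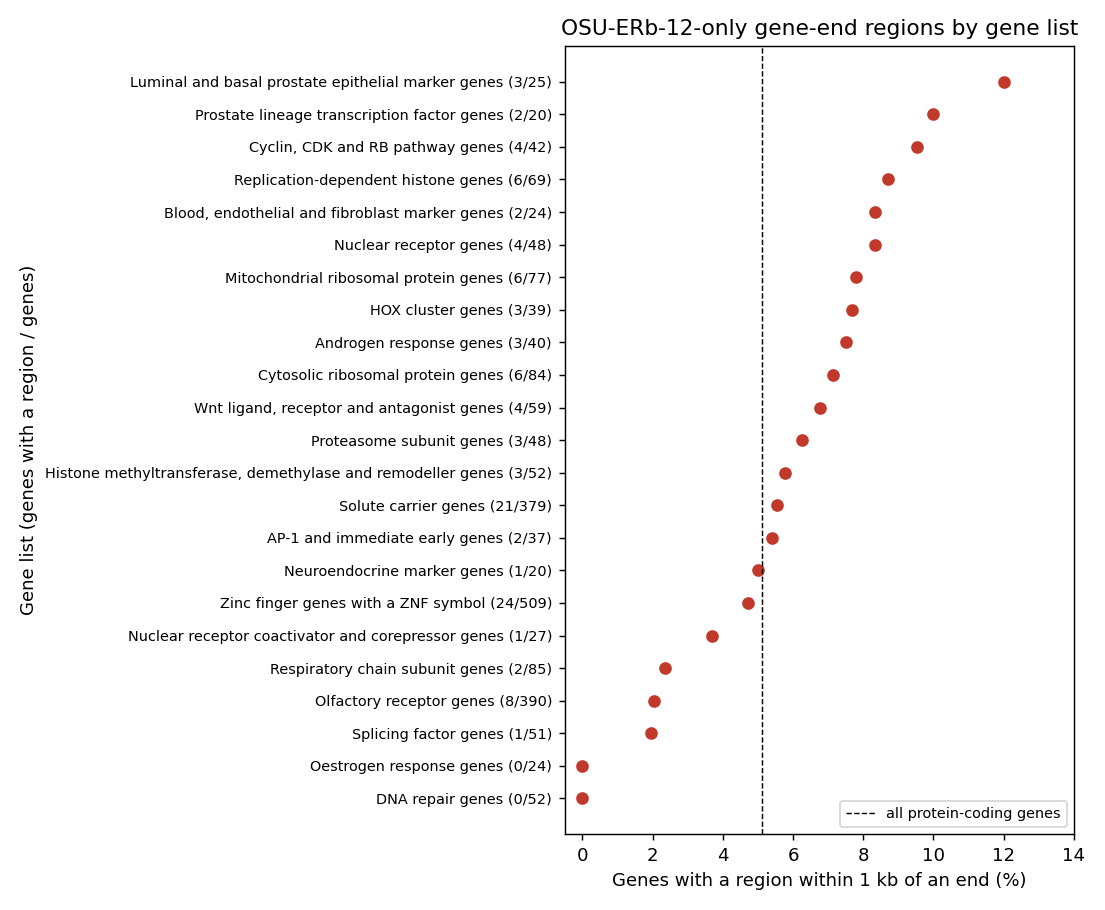
Share of genes with a member within 1 kb of an end (x axis, %) by gene list (y axis, genes with a member and genes in the list in brackets); the dashed line is the 5.12% of all protein-coding genes. Shares run from 0 of 24 oestrogen response genes to 3 of 25 luminal and basal markers.

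Members were unevenly spread over chromosomes. A member lay at 8.26% of 1066 genes on chromosome 3, 7.32% of 1024 on chromosome 12, 6.72% of 938 on chromosome 7 and 6.70% of 537 on chromosome 20, and at 2.24% of 848 on chromosome X. For enzalutamide-only regions the same shares were 27.5%, 28.2%, 24.8%, 22.3% and 21.0%. Unshared OSU-ERb-12 regions as a whole were also frequent on chromosome 3, with 1984 of 15837, of which 4.44% were at gene ends. Chromosome 19, rich in genes, had 471 such regions with 18.3% at gene ends, and 95 of its 1451 genes (6.55%) held a member. The number of copies of each chromosome in 22Rv1 was not measured here and its part in these shares was not tested. Without chromosomes 1, 3, 7, 8 and 12 a member lay at 4.60% of genes.

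**Figure D5:**
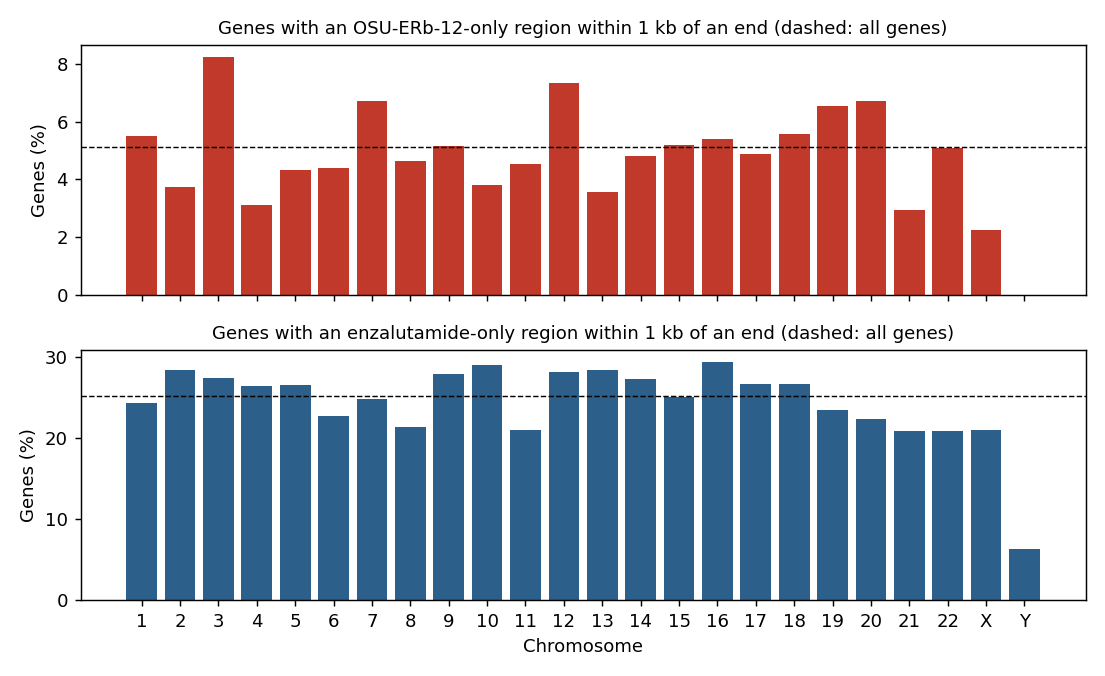
Share of protein-coding genes (y axis, %) with an OSU-ERb-12-only (top) or enzalutamide-only (bottom) region within 1 kb of an end, by chromosome (x axis); dashed lines mark 5.12% and 25.2% of all genes, and the y scales differ. For OSU-ERb-12-only regions chromosome 3 is highest at 8.26%.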

How the data were processed

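ATAC-seq results were deposited as 3 lists of regions, 1 per treatment, with hg38 positions and no header, so columns were read by order. The deposited score is 0 in every row, so regions could not be ranked or held to a stricter threshold. Boundaries lie on a 50 bp grid and the smallest width is 200 bp. Per the labels' protocols, ATACSeqQC was used to take nucleosome-free reads. The submitters' processing notes name FastQC, Trimmomatic and hg38. How regions were called and tested, whether replicates were pooled and how the transposase offset was handled is not given in the sources used here. Lists were matched to treatments by the prefix they share with sample titles, which for OSU-ERb-12 is WT.

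Genes were the 20033 RefSeq (GRCh38.p14) protein-coding genes on 24 chromosomes. Strand and promoter sequence came from the RefSeq promoter table, with an entry at the gene's outermost start (within 100 bp) for 13900 genes and none on chromosome 8. Coordinates are 1-based, and distances run from the nearest base of a region to a gene end. Exact 95% intervals (Clopper-Pearson for shares, conditional for odds ratios) cover the counting of regions only. Fisher's exact tests were two-sided with a threshold of 0.05 after Benjamini-Hochberg adjustment over 9 tests, 3 of them against shared regions and not read as results (scipy 1.17.1, statsmodels 0.14.6, Python 3.11.15). Placement, overlap and odds ratios were tested on simulated data. Alternatives were the window, the overlap that counts as shared, region width, midpoint, merging, chromosomes and the CpG limit.

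Members and gene lists were chosen with earlier results of these data known. Genes are named by rule: the 10 with most members, those of the 10 widest members, up to 10 with members at both ends by gene length, up to 4 per gene list, those just inside and outside the limit, and MYC, FKBP5, KLK3, TMPRSS2, HOXB13, FOXA1, ESR2 and ESR1. Some genes and 1 gene list that the rule covers are not reported here. Promoters are printed by rule where a named gene's start is covered. CD63, INHBC, NTSR1, SOCS3, BTG1 and CDPF1 were named after their values were seen, and so were the sequences of LRRC3 and SLC2A2 chosen. Oestradiol treatment, named in the protocols, was not analysed here.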

Additional observations from a re-analysis of the deposited data

How the results depend on the processing

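Odds ratios for lying nearest to a start ran from 0.21 to 0.35 against enzalutamide-only regions and were called in all 13 alternatives run. They ran from 0.42 to 0.71 against combination-only regions. The alternatives include the whole lists, whose groups share regions, so that call is not read. Of 137 comparisons under alternatives, 114 kept their call or value, 13 lost the call, 10 moved and 0 reversed. The 137 include the ratios against shared regions and those with the whole lists, whose calls are not read as results. A window of 500 bp gave 541 members at 2.86% of genes, and an odds ratio for ends of 2 or more genes against shared regions of 0.77 (not called). A window of 2 kb gave 1550 members at 8.61% of genes. Counting regions within 500 bp as shared gave 4.60% of genes, and placing regions by midpoint 4.62%.

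With regions wider than 200 bp only, 362 OSU-ERb-12-only gene-end regions lay at 2.02% of genes. Here 200 bp regions were left out of every list before overlaps were counted. A region that overlapped only 200 bp regions of another list thus counted as unshared. Not all of the 362 are therefore members, since 639 of the 948 members were 200 bp wide. In this setting, odds ratios against combination-only regions were 0.67 for starts, 0.65 for ends of 2 or more genes and 0.65 for CpG-rich starts. For ends of 2 or more genes they were 0.80 against enzalutamide-only and 0.86 against shared regions, and for CpG-rich starts 0.66 against shared regions. None of these 6 was called, with fewer regions in each set. Ratios against shared regions carry the limit that overlap itself sets that group. Without chromosome 1, CpG-rich starts against shared regions gave 0.67 (not called).

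Further alternatives were chosen after seeing the data. Without chromosomes 1, 3, 7, 8 and 12, 594 members lay at 4.60% of genes. Ends of 2 or more genes gave 0.76, 0.69 and 0.67 against enzalutamide-only, combination-only and shared regions, and CpG-rich starts 0.66 against shared regions, none called. In the whole lists, ends of 2 or more genes gave 0.84 against the combination (not called, with shared regions in both groups). Where no value shows a cause, the cause was not tested. No paired analysis was possible because the lists hold no values per sample, and for the same reason no replicate could be left out.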
